A study of Saccharomyces cerevisiae with 4 samples.

Results

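The small (40S) subunit of the yeast cytosolic ribosome carries ribosomal RNA and a fixed set of proteins, RPS0 to RPS31, together with the scaffold protein Asc1. The reading frames of these proteins, 57 of the 6706 listed in each library, were taken by their systematic names, from RPS0A to RPS31 and ASC1. They encode 33 proteins, of which 24 have an A and a B gene copy (paralogs) and 9 have 1 gene. All 57 passed the filter on low counts, which left 6205 reading frames to be tested.

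RNA was compared between a wild-type strain of the W-303 background and a derivative labelled as deleted for the tRNA genes of chromosome III (tDNA-less). Each strain had 2 libraries, which the labels call biological replicates. Both strains are MATa and carry ade2-1, trp1-1 and ura3-1. The wild type (JRY2334) also carries mutant alleles of HIS3 and LEU2 and can1-100. The label of the tDNA-less strain (JKY690) lists t0D, t1D, t3D and t4D, then t5D, t6D and t7D, as well as t8D+t9D::LEU2 and T1+T7::HIS3. That list has no entry between t1D and t3D, so it does not show that every tRNA gene of the chromosome is absent. Cells grew in rich medium (YPD) to early log phase without treatment. Each strain has 1 strain name in the labels, so the tRNA genes, the markers and other differences between the strains cannot be told apart.

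The 40S subunit binds mRNA and the initiator tRNA and reads codons. Genes for ribosomal proteins are among the most heavily transcribed in growing yeast; most are activated through Rap1 with Fhl1 and Ifh1, and they are tuned together by nutrient signals through TOR and Sfp1. Many were kept as duplicates after the ancient genome duplication of yeast, and an unusually large share contains introns. Copies of 1 protein can be expressed unequally, and a few control themselves: Rps14 binds the RPS14B pre-mRNA and lowers its splicing, and Rps28 promotes decay of the RPS28B mRNA with Edc3.

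The reading frames of both copies are alike, and how far they differ sets how well their reads can be assigned. The pair with the most unequal expression, RPS28, and the very even pair RPS29 are shown here because both are short and differ at enough places for reads to be told apart. Coding sequences are from the R64 reference (the RefSeq assembly of strain S288C, which corresponds to sacCer3), written 5′ to 3′ on the strand of the gene, with the bases in which a copy differs from its partner in capitals. RPS28A lies at chrXV:648804-649007 on the minus strand and RPS28B at chrXII:673131-673334 on the plus strand.
RPS28A: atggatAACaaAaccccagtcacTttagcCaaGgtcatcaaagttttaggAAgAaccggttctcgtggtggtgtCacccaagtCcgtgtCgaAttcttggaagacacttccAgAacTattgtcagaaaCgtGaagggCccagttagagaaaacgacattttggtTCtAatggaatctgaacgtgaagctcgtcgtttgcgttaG
RPS28B: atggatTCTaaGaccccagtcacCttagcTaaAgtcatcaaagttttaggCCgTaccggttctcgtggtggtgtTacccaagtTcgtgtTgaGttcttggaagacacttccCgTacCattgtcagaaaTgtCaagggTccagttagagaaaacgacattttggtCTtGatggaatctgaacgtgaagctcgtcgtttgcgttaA
RPS29A lies at chrXII:898651-898821 on the plus strand and RPS29B at chrIV:340628-340798 on the minus strand.
RPS29A: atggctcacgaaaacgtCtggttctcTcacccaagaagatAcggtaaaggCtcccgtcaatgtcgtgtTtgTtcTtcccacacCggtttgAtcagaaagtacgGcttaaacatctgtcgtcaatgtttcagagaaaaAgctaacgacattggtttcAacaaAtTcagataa
RPS29B: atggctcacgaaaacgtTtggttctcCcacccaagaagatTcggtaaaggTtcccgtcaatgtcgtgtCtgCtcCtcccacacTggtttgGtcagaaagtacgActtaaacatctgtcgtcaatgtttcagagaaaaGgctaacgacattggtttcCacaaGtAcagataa

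The RPS28 copies differ at 24 of 204 bases and the RPS29 copies at 14 of 171. Reads were matched by kallisto through short words, and of the 31-base words of each copy 2.87% in RPS28 and 2.13% in RPS29 also occurred in the partner. Over the 24 pairs, identity ran from 84.3% in RPS27, which shares no such word, to 99.2% in RPS6, which differs at 6 of 711 bases and shares 79.74%. RPS4 (60.71%) and RPS24 (53.7%) also share most of their words, so the division of reads between those copies rests on few positions. RPS31, which is made as a fusion with ubiquitin, shares 8.86% of its words with the ubiquitin fusion genes RPL40A and RPL40B.

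The members lie on 14 chromosomes, and 1 of them, RPS14A, is on chromosome III, at 177500 to 178220 on the minus strand. It is 9128 bases from the nearest of the 10 tRNA genes that the reference places on that chromosome, a glutamine tRNA gene. Of all members 1, RPS7B, lies within 1000 bases of an annotated tRNA gene, a leucine tRNA gene 279 bases away on chromosome XIV. A coding intron interrupts 37 of the 57, in both copies of 17 pairs, in neither copy of 6 and in 1 copy of 1 pair, RPS22, where RPS22B has it. The introns of RPS22B and ASC1 each hold a small nucleolar RNA gene (SNR44 and SNR24). RPS14B and RPS22A converge on chromosome X with 298 bases between them.

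Upstream of the reading frames, a simplified form of the Rap1 site (ACA, any base, CC, any 2 bases, ACA) was searched on both strands over 500 bases before the start codon. It was present at 20 of the 57 members, a share of 35.1%, against 28.4% of 81 reading frames of the large subunit and 2.37% of 5989 nuclear reading frames with a full window. The classical Rap1 consensus, which can match at the same place and was added after seeing the data, was found at 9 members (15.8%) and at 1.6% of all. The consensus of Abf1, another general regulatory factor, was found at 6 members (10.5%) and at 18.2% of all, and both copies of RPS28 were among the 6. The windows below show the Rap1 pattern at both copies of RPS18, a nearly even pair, and the Abf1 consensus at both copies of RPS28, with the match in capitals and 45 bases on either side, on the strand of the gene.
RPS18A upstream (chrIV:1359551-1359651): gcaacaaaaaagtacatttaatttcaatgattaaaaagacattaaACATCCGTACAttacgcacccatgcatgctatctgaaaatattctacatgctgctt
RPS18B upstream (chrXIII:224147-224247): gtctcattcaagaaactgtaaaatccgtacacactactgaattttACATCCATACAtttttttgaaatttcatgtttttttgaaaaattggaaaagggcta
RPS28A upstream (chrXV:649114-649216): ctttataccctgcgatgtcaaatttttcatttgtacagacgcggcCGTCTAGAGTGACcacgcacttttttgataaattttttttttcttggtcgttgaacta
RPS28B upstream (chrXII:672905-673007): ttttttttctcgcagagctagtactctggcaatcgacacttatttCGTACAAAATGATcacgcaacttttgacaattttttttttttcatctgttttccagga

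The centre of the match is 322 and 369 bases before the start codon in RPS18A and RPS18B, and 158 and 175 bases before it in RPS28A and RPS28B. The Rap1 pattern was in both copies of 5 pairs, in the A copy alone of 4, in the B copy alone of 5 and in neither copy of 10. A match is a description of the letters and not evidence of binding in these cells.

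Library totals lay between 12.48 M and 19.76 M estimated counts. A large part went to only 4 reading frames (YSH1, ATG7, LTO1, MSK1), which together held 39.56% and 30.63% of the wild-type totals against 45.09% and 36.07% of the tDNA-less totals. TPM, a level per length, sums to the same total in every library, so other reading frames have a smaller remainder where these are high. HIS3, the inserted marker, stood at 17.55 and 12.84 TPM in wild type and at 522.9 and 648.4 TPM in the tDNA-less strain. Of the members, the lowest, RPS28B, had 476.2 estimated counts in its shallowest library.

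In wild type the 40S genes were highly expressed. By mean TPM, 28 of the 57 were among the 100 highest reading frames, 49 among the 200 highest, and all 57 among the 500 highest. The highest member, RPS30A (YLR287C-A), ranked 11 and the lowest, RPS9A (YPL081W), ranked 301. The median member had 1569 TPM, while the median of all reading frames was 17.57 TPM. Together the members made up 11.99% and 12.98% of all TPM in the wild-type libraries and 11.04% and 11.92% in the tDNA-less libraries, which do not overlap but nearly meet.

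**Figure D1:**
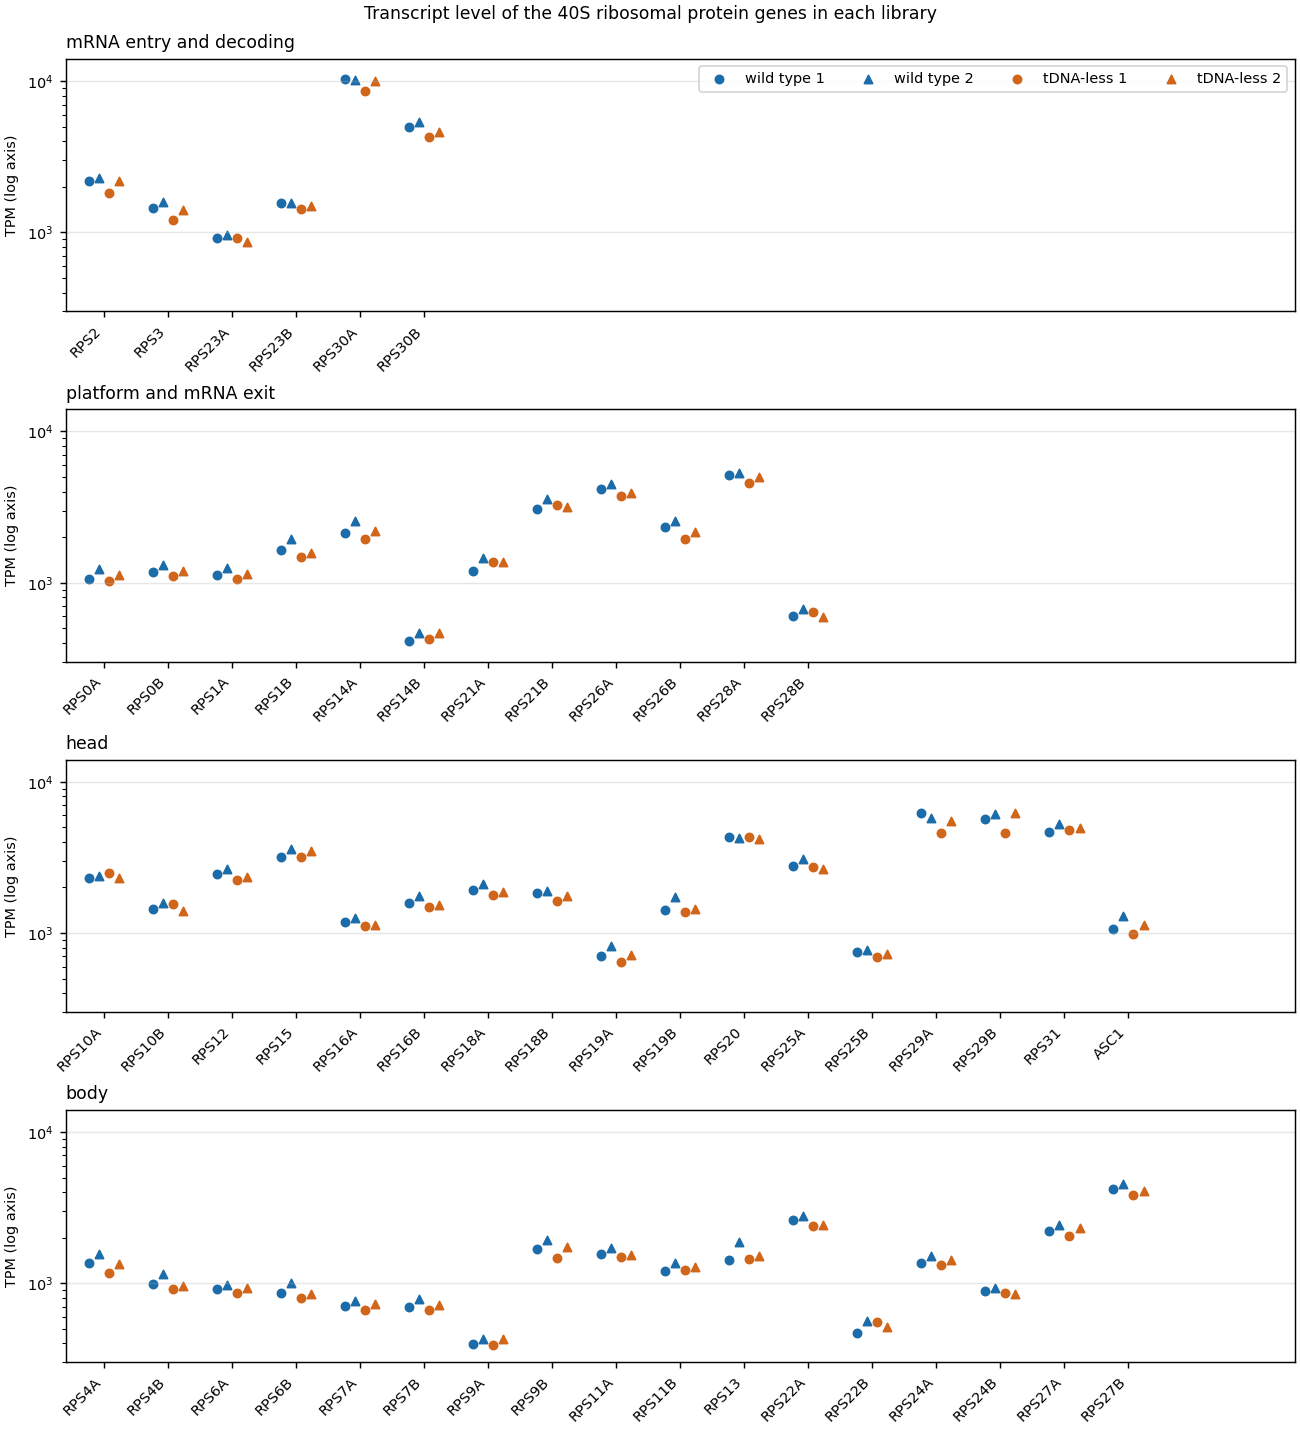
Level of 52 of the 57 40S genes (TPM, log axis) in the 2 wild-type libraries (blue) and the 2 tDNA-less libraries (orange), with circles for replicate 1 and triangles for replicate 2, in panels by place in the subunit. Points of 1 gene lie close together beside the distance between genes, and RPS9A, RPS14B and RPS22B stand below the rest.

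With the copies of each protein added, levels in wild type ran from 1183 ± 167 TPM for ASC1 (YMR116C) to 15360 ± 159 TPM for RPS30 (SD, n = 2), with a median of 2861 TPM over the 33 proteins, and 27 of them lay within 2-fold of that median. Each of these proteins is present as 1 molecule per subunit. Across the 33 proteins, TPM and coding length had a Spearman rho of -0.72, a description over genes of the same libraries. TPM divides by an effective length, which for the 171-base RPS29 frames was 27.6 to 30.0 bases. When counts were divided by the full coding length instead, rho was -0.18, the range narrowed from 12.98-fold to 3.65-fold, and 32 of 33 proteins lay within 2-fold of the median.

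**Figure D2:**
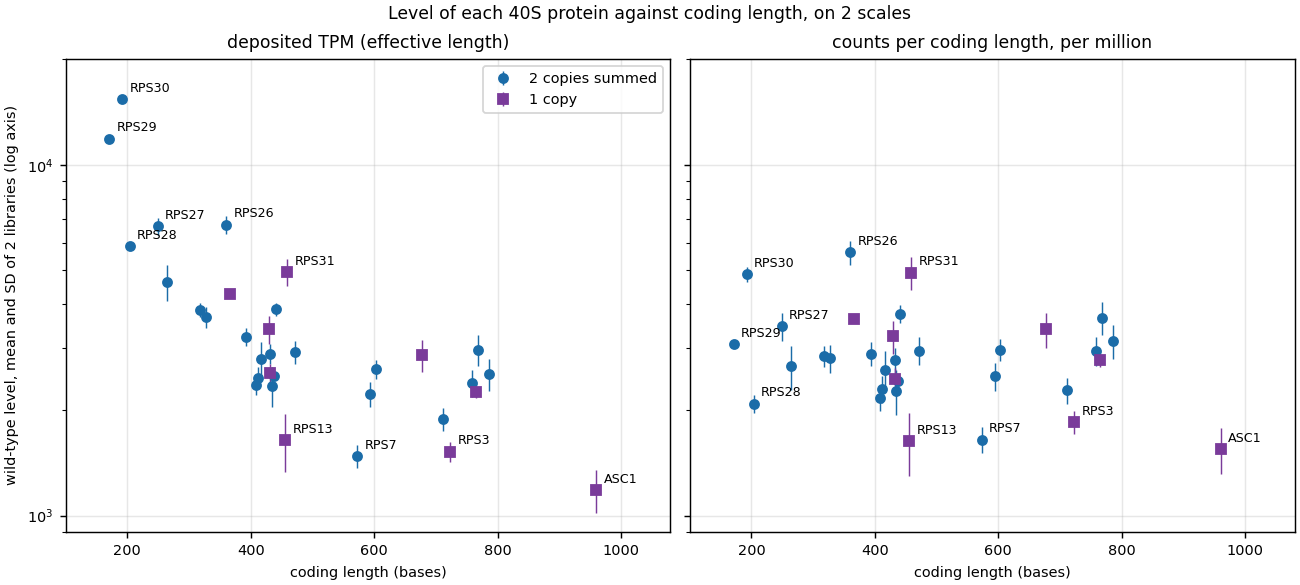
Wild-type level of each of the 33 proteins, copies added (mean and SD of 2 libraries, log axis), against coding length in bases, on the scale of deposited TPM (left) and of counts per coding length, scaled to the same total as TPM (right). The shortest frames, RPS29 and RPS30, are far above the others on the left and among them on the right.

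Among proteins at the mRNA entry and the decoding centre, RPS30 had the highest level of the whole subunit. Its summed TPM was 15240 and 15470 in wild type and 12880 and 14690 in the tDNA-less strain, lower without overlap. After TMM scaling for library composition, the sum of the copies went the other way, with 824.1 and 813.7 CPM (counts relative to the library total, not divided by length) in wild type and 847.6 and 834.8 CPM in the tDNA-less strain. RPS30 stood in position 3 by counts per coding length. On the TPM scale 15 of the 33 proteins were lower and 0 higher without overlap, while 7 were lower and 3 higher after scaling. This comparison was added after seeing the data. Of all single reading frames, 42.8% did not overlap after scaling, with 22.0% higher and 20.8% lower. No such share was counted for TPM, where all reading frames had a median difference of -0.114 as log2(TPM + 1). The TPM count therefore cannot be read as particular to these proteins. RPS3 (YNL178W), which lines the mRNA entry and acts in quality control of stalled ribosomes, was among the 4 lowest proteins, with 1449 and 1595 TPM in wild type and 1215 and 1412 TPM in the tDNA-less strain, lower in both, as also after scaling. RPS2 (YGL123W), its neighbour at the entry, had 2248 ± 80.8 TPM in wild type, and RPS23, a protein of the decoding centre, had 2501 ± 43.2 TPM as a sum of both copies.

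On the platform and at the mRNA exit, RPS26, which contacts mRNA just upstream of the start codon, was in position 3 by TPM and the highest by counts per coding length. Its summed TPM was 6469 and 7025 in wild type and 5707 and 6094 in the tDNA-less strain, and the strains did not overlap on this scale or after scaling. RPS28 ranked 5 by TPM but 29 by counts per coding length. RPS0 and RPS21, which bind each other, had 2394 ± 210 and 4636 ± 538 TPM in wild type, and RPS1, the large platform protein, 2972 ± 295 TPM.

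In the head, RPS29, a small zinc-binding protein, ranked 2 by TPM and 11 by counts per coding length. Its summed TPM was 11850 and 11890 in wild type and 9225 and 11710 in the tDNA-less strain, where replicate 1 was low and replicate 2 near wild type. After scaling the sums overlap, with 472.8 and 449.9 CPM in wild type and 456.9 and 483.7 CPM in the tDNA-less strain. The effective length of RPS29 was 30.0 bases in tDNA-less replicate 1 and 27.6 to 28.6 in the other libraries. RPS31 (YLR167W), the ubiquitin fusion, was at 4631 and 5270 TPM in wild type and 4778 and 4910 TPM in the tDNA-less strain. It was the highest 1-copy gene and ranked 2 by counts per coding length. ASC1, the yeast counterpart of RACK1, which sits on the head near the mRNA exit, was the lowest protein on both scales, with 1064 and 1301 TPM in wild type and 980.6 and 1129 TPM in the tDNA-less strain. The wild-type replicates differed by more than the strain means did for RPS31 and ASC1. The other 1-copy genes of the head were RPS20 at 4287 TPM in wild type, RPS15 at 3397 TPM and RPS12 at 2556 TPM. Other pairs of the head lay between 2349 ± 308 TPM (RPS19) and 3876 ± 169 TPM (RPS18).

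In the body, RPS27, a zinc-binding protein, ranked 4 by TPM, with 6411 and 6952 TPM in wild type and 5872 and 6415 TPM in the tDNA-less strain. RPS7 and RPS13 (YDR064W) were among the 4 lowest proteins. RPS7 had a sum of 1402 and 1554 TPM in wild type and 1337 and 1449 TPM in the tDNA-less strain. RPS13, which helps bridge the subunits, had 1424 and 1861 TPM in wild type and 1440 and 1506 TPM in the tDNA-less strain, both between the wild-type values. The neighbours in this order, RPS13 at 1642 ± 309, RPS3 at 1522 ± 104 and RPS7 at 1478 ± 107 TPM in wild type, differ by less than their spread. Other proteins of the body lay between 1886 ± 142 TPM (RPS6) and 3232 ± 197 TPM (RPS22).

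The 9 proteins with 1 gene had a median of 2556 TPM in wild type. The 24 pairs had a median of 2908 TPM as sums and their 48 single copies one of 1485 TPM. Members with a coding intron had a median of 1442 TPM and those without one of 2634 TPM, with median coding lengths of 435 and 411 bases. On the scaled counts, which are not divided by length, the medians in wild type were 522.5 CPM with an intron and 880.8 CPM without. Of the 9 proteins with 1 gene, only RPS13 and ASC1 have a coding intron, so these medians mix intron and copy number. Paired copies of both kinds exist, but medians within the pairs alone were not taken.

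The balance between copies differed from pair to pair and was close to the same in all 4 libraries. In wild type the A copy held the larger share of TPM in 15 pairs and the B copy in 9. The larger copy was the same in every library in 21 of 24 pairs. In 7 pairs the larger copy exceeded the smaller at least 2-fold in wild type, and in 6 pairs they were within 1.25-fold. The median ratio of larger to smaller copy was 1.62, beside 1.64 over 33 pairs of the large subunit, where the highest ratio was 31.9.

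**Figure D3:**
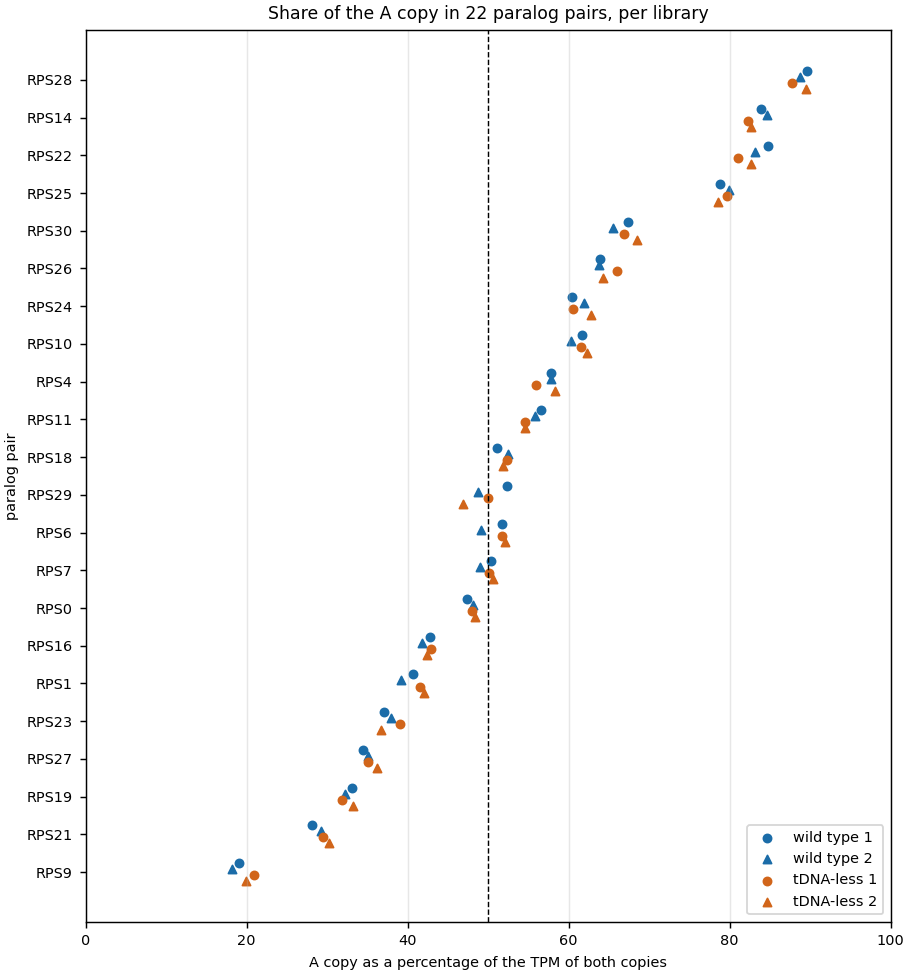
Share of the A copy (percent of the TPM of both copies) in 22 of the 24 paralog pairs, ordered by the wild-type mean, with 2 wild-type libraries in blue and 2 tDNA-less libraries in orange; the dashed line marks equal copies. Pairs are spread from RPS9 at 18.7% to RPS28 at 89.2% in wild type, and the 4 libraries of a pair lie within 5.51 percentage points of each other.

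The most unequal pair was RPS28, with an 8.22-fold ratio in wild type. Its A share was 89.61% and 88.69% in wild type and 87.79% and 89.43% in the tDNA-less strain, so the strains overlap. RPS28A (YOR167C) was at 5170 and 5286 TPM in wild type and RPS28B (YLR264W), the self-regulated copy, at 599.2 and 674.4 TPM. The coding sequences printed above differ at 24 bases, so this gap does not rest on a few distinguishing positions.

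RPS14 followed, with the A copy on chromosome III 5.36-fold above the B copy in wild type. RPS14A (YCR031C) was at 2147 and 2563 TPM in wild type and at 1954 and 2210 TPM in the tDNA-less strain. RPS14B (YJL191W), whose splicing is restrained by the Rps14 protein, was at 412.6 and 463.4 TPM in wild type and 421.3 and 464 TPM in the tDNA-less strain. Each copy overlaps between the strains in TPM. The A share was 83.88% and 84.68% in wild type and 82.26% and 82.65% in the tDNA-less strain, which do not overlap.

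RPS22 was the third pair of this kind, with RPS22A (YJL190C), which has no coding intron, 5.24-fold above RPS22B (YLR367W), which has one. Its A share was 84.74% and 83.2% in wild type and 81.09% and 82.66% in the tDNA-less strain. RPS9, grouped here with the body, encodes a protein that lies near the decoding centre and affects accuracy. The pair leaned to the B copy by 4.36-fold in wild type. Its A shares were 19.11% and 18.19% in wild type and 20.96% and 19.97% in the tDNA-less strain. RPS9A was the lowest 40S gene by wild-type mean, with 398.8 and 426.8 TPM in wild type and 391.7 and 430.2 TPM in the tDNA-less strain. RPS25A (3.85-fold over its partner), RPS21B (2.49-fold) and RPS19B (2.06-fold) complete the 7 pairs.

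The most even pairs were RPS7, RPS6, RPS29 and RPS18. RPS7A had a share of 50.36% and 49.04% in wild type and 50.17% and 50.66% in the tDNA-less strain. In RPS6, whose protein is the classical phosphorylated protein of the subunit, the A share was 51.67% and 49.11% in wild type and 51.67% and 52.14% in the tDNA-less strain. RPS6 copies share most of their words, and how reads at shared positions were divided was not tested. RPS29 had the widest range, with 52.32% and 48.75% in wild type and 49.98% and 46.82% in the tDNA-less strain, and RPS18A held 51.1% and 52.44% in wild type and 52.36% and 51.84% in the tDNA-less strain.

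Between the strains the mean A share differed by a median of 0.88 percentage points in absolute size and by 2.14 points at most, while the median SD within a strain was 0.74 points. Of the 24 pairs, 8 had shares that did not overlap between strains, with 5 of them higher and 3 of them lower in the tDNA-less strain. That is a share of 33.3%, the same as the 33.3% of the 33 pairs of the large subunit. That count is therefore not a result about the 40S pairs. Of the 8, RPS22 differed by -2.09 points (81.87 ± 1.11% against 83.97 ± 1.09%, n = 2; exact two-sided permutation test, p = 0.333). RPS1 differed by 1.9 points (41.83 ± 0.32% against 39.93 ± 1.05%), RPS14 by -1.83 points (82.46 ± 0.27% against 84.28 ± 0.57%) and RPS9 by 1.81 points (20.46 ± 0.7% against 18.65 ± 0.65%). The exact permutation test gave p = 0.333 for each, which is the smallest p that 2 libraries against 2 allow. With 1 library left out, these differences ran from -2.88 to -1.31 points for RPS22, from 1.16 to 2.65 for RPS1, from -2.22 to -1.42 for RPS14 and from 1.32 to 2.31 for RPS9, so their order is not settled. RPS22 was smallest without wild-type replicate 1 (-1.33) and tDNA-less replicate 1 (-1.31), and RPS1 without wild-type replicate 2 (1.16).

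In RPS9, RPS14 and RPS22 the copy with a higher share in the tDNA-less libraries was the minor one. This was noticed after the values were seen, and it was counted over all pairs with the minor copy defined by the mean over 4 libraries. The minor copy had the higher log2 fold change in 15 of 24 pairs of the small subunit and in 18 of 33 of the large subunit. Where the major copy was at least 2-fold higher, it was so in 6 of 8 pairs of the small subunit (the 7 named above and RPS30, whose mean ratio over 4 libraries was 2.04) and in 3 of 10 of the large one. The count rests on small differences, from -0.08 to 0.21 on the log2 scale in the 8 pairs, and none was tested.

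The strain comparison asks whether the 40S genes are expressed differently in the tDNA-less strain. With the quasi-likelihood test of edgeR, adjusted by Benjamini-Hochberg over all 6205 reading frames, 0 of 57 members passed an adjusted p of 0.05. The background was 1.5% of all reading frames called, 0.806% in the higher direction and 0.693% in the lower, so a count of 0 among 57 lies near it. In bulk RNA, fewer cells of a kind and less RNA per cell cannot be told apart. At an unadjusted p under 0.05 there were 0 members, against 11.8% of all reading frames. DESeq2 and limma-voom also called 0 members, with 0 and 1 of them at an unadjusted p under 0.05.

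The fitted log2 fold changes of the members ran from -0.17 to 0.13, with 25 above 0 (against 50.6% of all reading frames) and 32 below, and a median of -0.016, beside 0.003 for all reading frames. Their median absolute size was 0.056, against 0.125 for all reading frames and 0.101 for the 2319 at or above the level of the lowest member. Standard errors were between 0.07 and 0.12. The 95% intervals of 53 of 57 members lay within 1.25-fold in either direction, and those of all 57 within 1.5-fold, compared with 26.9% and 68.6% of all reading frames. The 4 whose intervals reached past 1.25-fold were RPS26B (YER131W) on the lower side (to -0.35) and RPS21A (YKR057W) (to 0.34), RPS22B (to 0.33) and RPS28B (to 0.38) on the upper side. Differences inside these intervals are not excluded by 2 libraries per strain. The intervals are not limits of what the adjusted test could call.

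**Figure D4:**
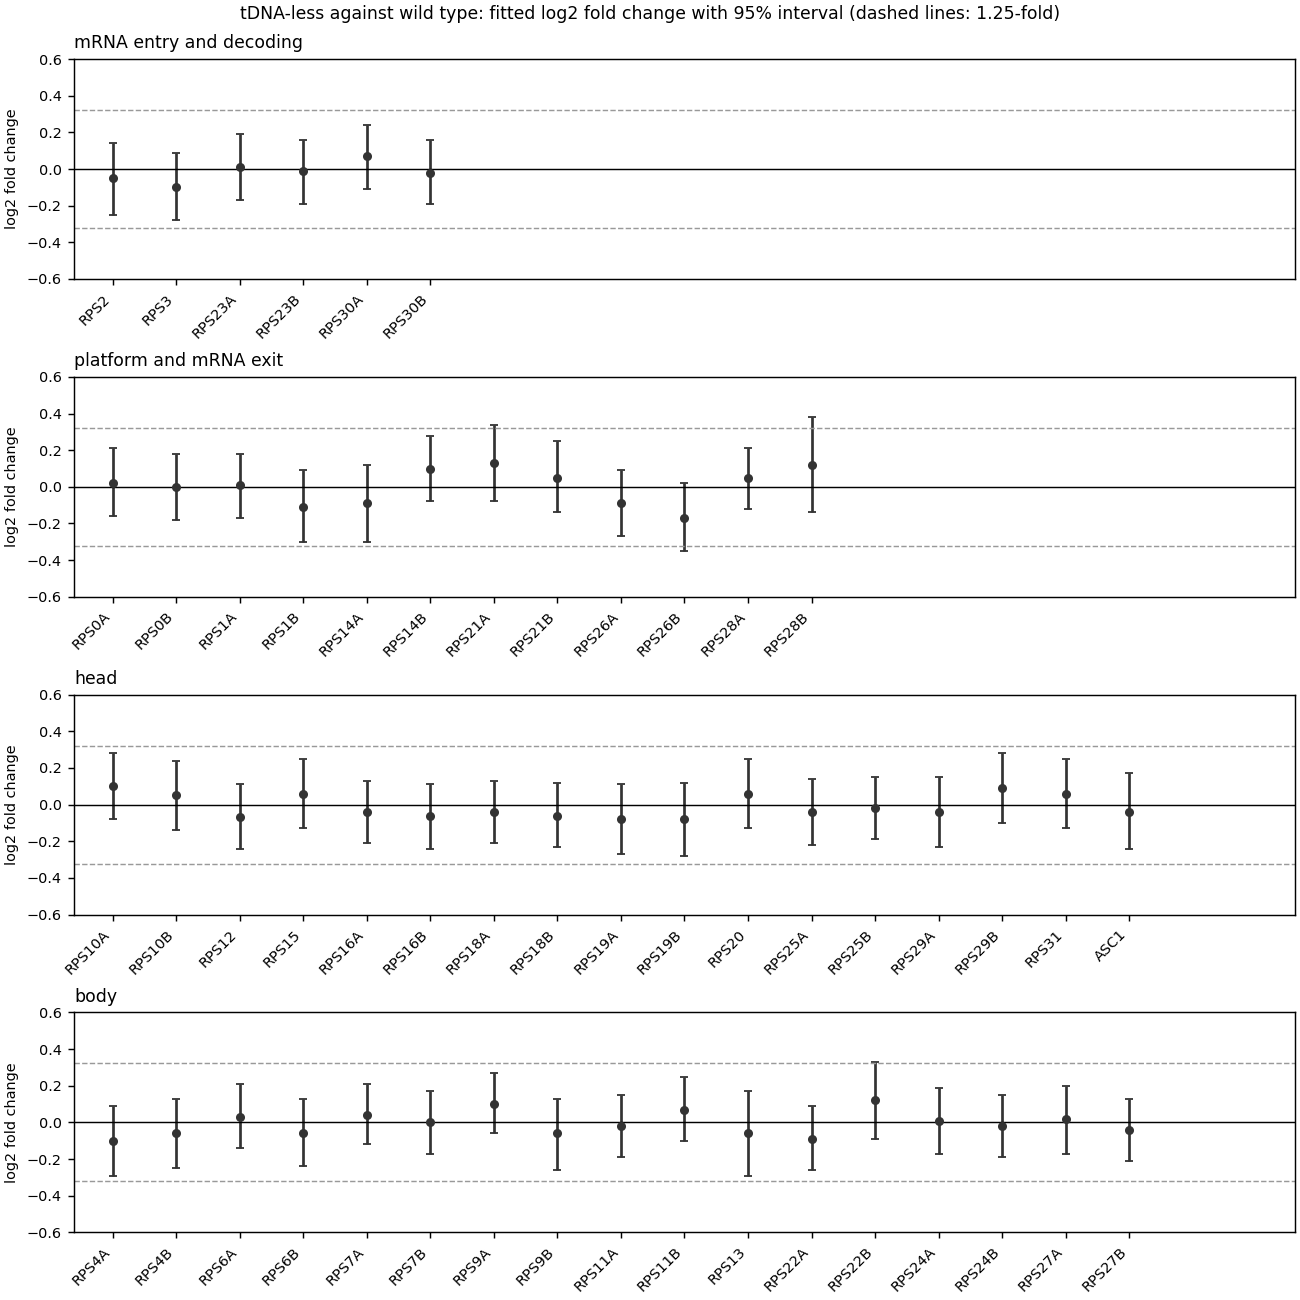
Fitted log2 fold change of 52 of the 57 40S genes, tDNA-less against wild type (edgeR; points), with 95% intervals (bars), in panels by place in the subunit; dashed lines mark 1.25-fold. Every plotted interval includes 0, and 4 cross a dashed line.

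After scaling, the libraries of 8 members were higher and those of 11 lower in the tDNA-less strain without overlap, where 42.8% of all reading frames did not overlap (22.0% higher and 20.8% lower). By place, the median log2 fold change was -0.015 for the 6 genes of the mRNA entry and decoding centre, 0.024 for 13 of the platform and exit, -0.039 for 19 of the head and -0.012 for 19 of the body.

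The member with the smallest p was RPS26B. Its scaled level was 629.4 and 651.7 CPM in wild type and 543.5 and 598.2 CPM in the tDNA-less strain, lower in both tDNA-less libraries, and its fitted log2 difference was -0.17 ± 0.08 (SE; edgeR, adjusted p = 0.476). Its partner RPS26A (YGL189C) was at 1116 and 1150 CPM in wild type and 1055 and 1077 CPM in the tDNA-less strain, with a log2 fold change of -0.09 ± 0.08. Both copies were lower in both tDNA-less libraries, and neither passed the test. RPS1B (YML063W), of the platform, had 1408 and 1553 CPM in wild type and 1394 and 1353 CPM in the tDNA-less strain (log2 fold change -0.11 ± 0.09, edgeR adjusted p = 0.683). RPS4A (YJR145C), of the body, had 1200 and 1299 CPM in wild type and 1137 and 1191 CPM in the tDNA-less strain (-0.10 ± 0.08, edgeR adjusted p = 0.693). Neither overlaps between the strains. Without wild-type replicate 2 both log2 fold changes were -0.04, and without wild-type replicate 1 they were -0.18 for RPS1B and -0.17 for RPS4A. RPS26B was at -0.1 without tDNA-less replicate 1.

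On the upper side, RPS21A had 161.8 and 190.5 CPM in wild type and 196.4 and 190 CPM in the tDNA-less strain, with a fitted log2 fold change of 0.13 ± 0.09 (edgeR, adjusted p = 0.634), and the strains overlap. RPS9A was higher in both tDNA-less libraries, at 257.7 and 263.4 CPM against 242.1 and 243.1 CPM in wild type (0.10 ± 0.07, edgeR adjusted p = 0.64). RPS22B overlaps, with 149.4 and 170.2 CPM in wild type and 183.6 and 164.9 CPM in the tDNA-less strain (0.12 ± 0.09, edgeR adjusted p = 0.667). Without wild-type replicate 1 the log2 fold change was 0.01 for RPS21A and 0.03 for RPS22B, and without wild-type replicate 2 it was 0.26 and 0.22. RPS22B was at 0.04 without tDNA-less replicate 1 and 0.2 without tDNA-less replicate 2. RPS9A stayed between 0.09 and 0.11 with any 1 library left out. None of these differences passed the test against the spread between libraries.

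RPS14A is the 40S gene on the altered chromosome. It had 744.4 and 841.6 CPM in wild type and 710.2 and 778.1 CPM in the tDNA-less strain, which overlap, with a log2 fold change of -0.09 ± 0.09 (95% interval -0.30 to 0.12; edgeR, adjusted p = 0.767). RPS14B did not overlap, as it had 144.8 and 154 CPM in wild type and 155.1 and 165.4 CPM in the tDNA-less strain, with a log2 fold change of 0.10 ± 0.08 (95% interval -0.08 to 0.28; edgeR, adjusted p = 0.684). Leaving out 1 library put RPS14A at -0.18 (wild-type replicate 1), 0.0 (wild-type replicate 2), -0.03 (tDNA-less replicate 1) or -0.16 (tDNA-less replicate 2), and RPS14B between 0.05 and 0.15. With all libraries, the log2 fold change of RPS14A lay 0.19 below that of its partner, a difference that was not tested across genes. RPS31 and ASC1 had log2 fold changes of 0.06 ± 0.09 and -0.04 ± 0.09 (edgeR, adjusted p = 0.838 and 0.931), and without wild-type replicate 2 they were 0.12 and 0.06, against 0.01 and -0.13 without wild-type replicate 1. RPS31 and RPS9A were at -0.03 and -0.01 on the log2(TPM + 1) scale.

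The sum over the members depended on the scale. As a share of TPM they held 12.48 ± 0.70% of the wild-type total and 11.48 ± 0.62% of the tDNA-less total (n = 2; exact two-sided permutation test, p = 0.333, the smallest possible). With the 4 dominant reading frames left out the shares were 14.98% and 15.11% in wild type and 14.29% and 14.4% in the tDNA-less strain, a difference of -0.7 points. After TMM scaling the sums were 38428 and 40315 CPM in wild type and 38795 and 39066 CPM in the tDNA-less strain, both between the wild-type values (exact permutation test, p = 1). With log2(TPM + 1) values, all reading frames had a median difference of -0.114 and the members one of -0.122, so relative to that shift the members were close to all others. On that scale the calls over all reading frames split into 17 higher and 35 lower, against 50 higher and 43 lower in the count fit.

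Wild-type replicates differed mostly in 1 direction. In wild type, 44 of the 57 members were higher in replicate 2 after scaling, with a median log2 difference of 0.06, while in the tDNA-less strain 27 were, with a median of -0.001. Without wild-type replicate 2 the median log2 fold change of the members was 0.015, and without wild-type replicate 1 it was -0.041.

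The large subunit, regulators and assembly factors were read from the same fit. Of 81 genes of the 60S subunit, 0 passed with any of edgeR, limma-voom and DESeq2. At an unadjusted p under 0.05 there were 2 with each tool, and the median log2 fold change was -0.008, close to the 40S value. Of 15 regulators, 0 were called by these 3 tools and 1 had an unadjusted p under 0.05, with a median of -0.037, 7 above 0 and 8 below. Among them IFH1, the coactivator at ribosomal protein genes, had 147.2 and 130.2 CPM in wild type and 124.1 and 123.1 CPM in the tDNA-less strain (log2 fold change -0.16 ± 0.09, edgeR adjusted p = 0.504). FHL1, its partner on the promoters, had a fitted log2 fold change of -0.19 ± 0.10 (edgeR, adjusted p = 0.524), SFP1 one of -0.14 ± 0.08 and RAP1 one of -0.09 ± 0.10, while HMO1, an HMG protein at ribosomal protein promoters, was at 0.15 ± 0.09 and STB3, a repressor of ribosome biogenesis genes, at 0.21 ± 0.10. CRF1, also on this list, had the lowest value of the 15, -0.27 ± 0.22, at a low level of 8.109 and 8.414 CPM in wild type. None passed the test, and the 1 regulator with an unadjusted p under 0.05 in edgeR is not among those named. These regulators and TSR2 were chosen for their roles after values were seen.

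The 19 genes for assembly of the 40S subunit and its chaperones had a median log2 fold change of -0.185, with 18 of 19 below 0, against 49.4% of all reading frames. Again 0 passed with any of these tools. Before adjustment, 8 were under 0.05 with edgeR (11.8% of all reading frames), 8 with limma-voom and 1 with DESeq2. The libraries of 14 were lower without overlap, against 20.8% of all reading frames. The list was chosen with earlier results of these data known, so its direction is not independent evidence. TSR2, the chaperone that carries Rps26, had 61.87 and 62.61 CPM in wild type and 63.63 and 57.76 CPM in the tDNA-less strain, with a fitted log2 difference of -0.04 ± 0.09 (edgeR, adjusted p = 0.921).

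**Figure D5:**
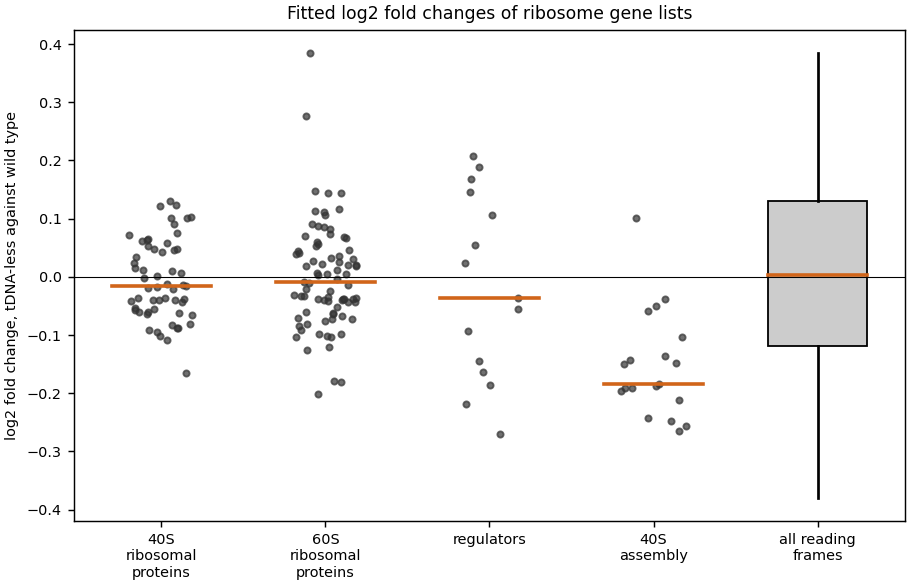
Fitted log2 fold change, tDNA-less against wild type, of each gene in 4 lists (points, spread sideways for visibility) with the list median (orange line), beside all 6205 reading frames as a box from the 25th to the 75th percentile with lines to the 5th and 95th. Both ribosomal protein lists centre near 0, at -0.016 and -0.008, and the assembly list at -0.185.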

How the data were processed

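RNA of wild-type and tDNA-less yeast was sequenced in 2 libraries per strain. The deposited tables hold estimated counts per reading frame, made by the authors with kallisto, per the submitters' processing notes, which also name sleuth and the sacCer3 build. The deposited TPM values are these estimated counts divided by an effective length and scaled, per the file headers. Not given in the sources used here were the kallisto version, index and strand setting.

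Estimated counts were rounded to whole numbers and tested with edgeR 4.0.16 (R 4.3.3; filterByExpr defaults, minimum count 10; TMM; quasi-likelihood test; Benjamini-Hochberg over 6205 reading frames, called at an adjusted p under 0.05). The common biological coefficient of variation was 9.82%. Alternatives used DESeq2 1.42.0, limma 3.58.1 (limma-voom, and log2(TPM + 1) or log2(TPM + 0.5)), other scalings and filters, a replicate block and each library left out. The edgeR fit was tested on simulated data. Shares and sums were compared with exact two-sided permutation tests over libraries. The labels call the libraries biological replicates and say no more of separate cultures, so p-values measure the spread between these libraries.

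The 57 members, the other lists and the tests were chosen with earlier results of these data known. Full values are given for the 3 members with the smallest p in each direction, the 4 highest and 4 lowest proteins, the 4 most unequal and 4 most even pairs, the 4 non-overlapping pairs with the largest difference in A share, RPS14A, RPS14B, RPS31 and ASC1. Gene names, positions and sequences are from the RefSeq R64 reference, which holds 6010 of the identifiers and gives an equal coding length for 99.7% of those. Single values of some members are not reported here; those members are part of every count, median and sum.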

Additional observations from a re-analysis of the deposited data

How the results depend on the processing

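No 40S gene was called under any of the 13 alternatives to the edgeR fit (scaling, filter, tool, TPM scale, replicate block and each library left out), and the lowest adjusted p of a member was 0.169, with the replicate block. The count over all reading frames, 93, was 48 with log2(TPM + 0.5) and 52 with log2(TPM + 1), of which 15 and 17 were higher. With the replicate block it was 282 (159 higher, 123 lower). Same-numbered libraries correlated at 0.241 in their deviations from the strain means, but with 2 pairs the numbers do not establish a pairing. With 1 library left out the count ran from 21 (without tDNA-less replicate 1) to 91, the higher calls from 8 to 52 and the lower from 13 to 42; it was 30 without tDNA-less replicate 2. The cause of these moves was not tested. The median log2 fold change of the members, -0.016, was -0.122 on both TPM scales, where the median of all reading frames was -0.118 and -0.114, and -0.041 to 0.015 with 1 library left out. On both TPM scales RPS9A was at -0.01 and RPS31 at -0.03, of opposite sign to the count fit. ASC1 ran from -0.13 to 0.06 with 1 library left out, the latter without wild-type replicate 2. For the 9 pairs given in full, leaving out 1 library of a strain returns the A share of the other, so it cannot test the mean share. Shares from estimated counts can depart from TPM shares only where the copies differ in length, which among these pairs holds for RPS14 and RPS9. From estimated counts the differences between strains were -1.85 points for RPS14 and 1.84 points for RPS9, against -1.83 and 1.81 points from TPM. With 1 library left out, the difference for RPS28, -0.54 points, ran from -1.36 to 0.28 (without tDNA-less replicate 1). That for RPS18, 0.33 points, ran from -0.34 (without wild-type replicate 1) to 1.0. The other 7 kept their sign. For RPS22, RPS1, RPS14 and RPS9 this was fixed in advance, since they were picked as pairs whose libraries do not overlap between strains. Differences for RPS28, RPS18, RPS29, RPS6 and RPS7 were added after seeing the data. With 2 libraries a strain, no permutation test could pass 0.05.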
